A study of Mus musculus with 29 samples.

Results

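Histone H3 monomethylated at lysine 4 (H3K4me1) was mapped by chromatin immunoprecipitation and sequencing in RAW264.7 cells that had received flavopiridol for 1 h and no lipopolysaccharide (LPS), and in untreated cells. All peaks of both deposited broad-peak lists on chromosomes 1 to 19 and X were taken. These were 67041 peaks after flavopiridol and 65547 peaks in untreated cells, together 132588 of the 1190714 peaks in the 26 peak lists of the series. Each peak was placed in a class by its overlap with the other list, and each class was described by the other chromatin marks of untreated cells.

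RAW264.7 is an established mouse cell line of macrophage type, transformed with the Abelson murine leukaemia virus. The flavopiridol library carries the label of a pretreatment of 1 h, its dose is not given in the labels, and the same H3K4me1 antibody product from Abcam is named for both libraries. The other H3K4me1 lists used here came from cells given flavopiridol for 1 h and then LPS at 100 ng/ml for 4 h, from cells given LPS alone for 4 h and from cells given LPS alone for 1 h. H3K4me3, H3K27ac, H3K79me2, H3K36me3, H3K27me3 and the transcription factor PU.1 were taken from untreated cells only, and H3K36me2 with flavopiridol alone and without it. Each condition and mark has 1 library from 1 cell line, so no difference below has a replicate check and no p-value is given. Whether the treated and untreated cells were grown and sequenced side by side is not stated in the labels. In the sample list the libraries with flavopiridol stand in a separate block from the H3K4me1 and H3K36me2 libraries without it. Drug and block therefore cannot be told apart in any comparison with the drug below. The untreated H3K27me3 library stands in the block with flavopiridol, unlike the untreated libraries of the other marks and PU.1. No marker gene could be checked, since the coordinates are of the mm9 build and no mm9 gene annotation was used here.

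H3K4me1 is placed by the methyltransferases KMT2C and KMT2D and is known from enhancers and from the flanks of promoters, where the centre carries H3K4me3 in its place. Flavopiridol inhibits CDK9, the kinase that releases paused RNA polymerase II into elongation. H3K79me2, written by DOT1L over the first part of transcribed genes, and H3K36me3, written by SETD2 along their bodies, mark transcribed chromatin. H3K27ac marks active enhancers and promoters, H3K27me3 is the Polycomb mark of repressed genes, and PU.1 is the factor that opens macrophage enhancers.

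H3K4me1 peaks covered less of the genome after flavopiridol although the list was longer. The peaks covered 143.7 Mb after flavopiridol and 192.1 Mb in untreated cells, a ratio of 0.748. Their median width was 1340 bp (quartiles 716 and 2570 bp) after flavopiridol and 1726 bp (916 and 3422 bp) in untreated cells. The deposited values were lower too. The median fold enrichment over the caller's background, a linear ratio, was 1.87 after flavopiridol and 2.45 in untreated cells. Of flavopiridol peaks 12.8% had a deposited −log10 q of 5 or more, and of untreated peaks 54.4%. The lists carry no read totals, so depth is unknown. The list after flavopiridol and LPS for 4 h was weaker still. Its median fold enrichment was 1.76, and 4.02% of its peaks had a −log10 q of 5 or more. After LPS for 4 h alone these values were 2.52 and 53.0%. Weaker enrichment in the libraries with flavopiridol moved with every loss described here, and its part in them was not tested.

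The lists also differed in the distance across which the caller had joined signal. The smallest gap between neighbouring peaks was 1205 bp and the smallest peak 301 bp after flavopiridol, against 1405 bp and 351 bp in untreated cells. The values after flavopiridol and LPS for 4 h were again 1205 and 301 bp, against 1353 and 338 bp after LPS for 4 h alone. With the untreated limits applied to both lists, 61289 flavopiridol peaks were left and the ratio of covered length was 0.763.

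Of the untreated peaks, 13728 shared no base with the flavopiridol list and are called lost, which is 20.9% (95% Wilson interval 20.6 to 21.3; intervals cover counting error only). Of the flavopiridol peaks, 9504 shared no base with the untreated list and are called gained, which is 14.2% (13.9 to 14.4). A further 6068 untreated peaks, 9.26%, met at least 2 flavopiridol peaks and are called fragmented. The reverse, a flavopiridol peak that joined at least 2 untreated peaks, was found 2051 times, 3.06% of the flavopiridol list. In 42289 cases 1 flavopiridol peak met 1 untreated peak. The flavopiridol peak was at most 0.8 of the untreated width in 20802 of them (narrowed, 31.7% of untreated peaks), wider by 25% or more in 5522 (widened, 8.42%) and in between in 15965.

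With these limits narrowing was the commonest fate of an untreated peak. This order depends on the limits. Where at least 50% of a peak had to be covered, 25338 peaks were lost and 12225 narrowed. With a narrowing limit of 0.5, 7946 were narrowed, fewer than the 13728 lost. The 42289 pairs had a median width of 1407 bp after flavopiridol and 1891 bp in untreated cells, and the median of the width ratio was 0.806 (quartiles 0.575 and 1.007). The flavopiridol peak was the narrower one in 74.3% of pairs. It was narrower by more than 50 bp, the difference between the smallest peaks of the lists, in 71.5%. Across the pairs widths went together (Spearman rho 0.721 over 42289 pairs, a description), whereas the deposited fold enrichment (rho 0.0188) and −log10 q (rho 0.0387) did not. Whether these values stand beside their own intervals cannot be told from the lists. For this reason the intervals and not their strengths are compared below.

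**Figure D1:**
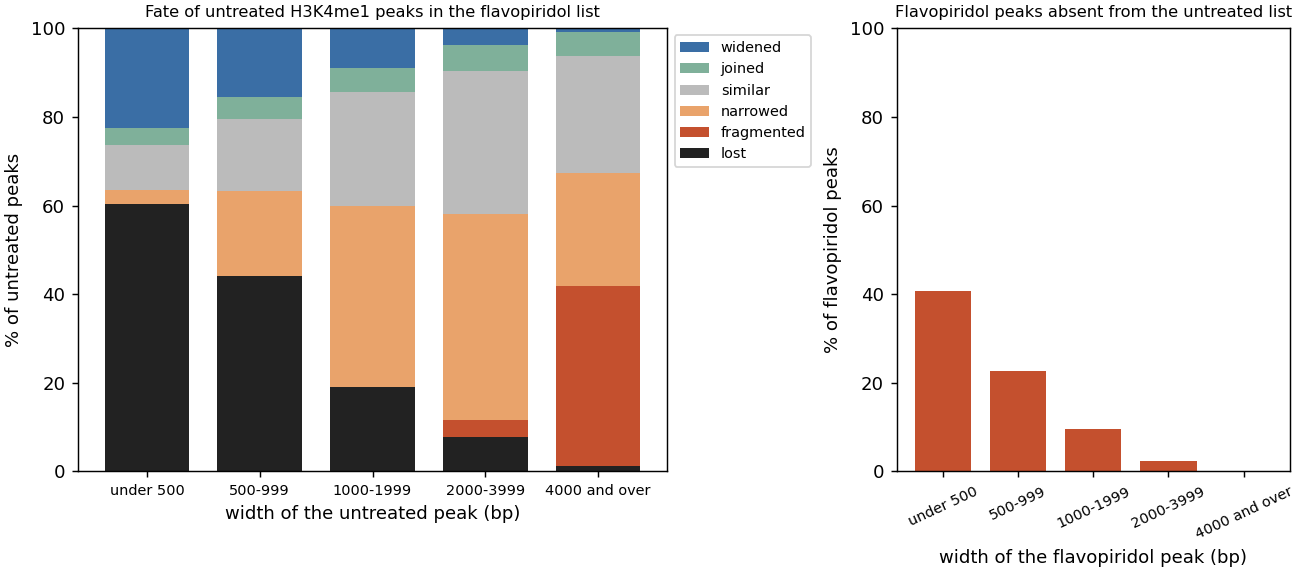
Left, share of untreated H3K4me1 peaks in each class by width of the untreated peak (bp); right, share of flavopiridol peaks with no base in the untreated list by width of the flavopiridol peak. Lost peaks make up 60.3% of untreated peaks under 500 bp and 1.17% of those of 4000 bp and over, where fragmented and narrowed peaks take their place.

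Fate differed by width, as the plot of classes by width shows. Under 500 bp, 60.3% of untreated peaks were lost, and the share was 44.1%, 19.04%, 7.79% and 1.17% in the classes that start at 500, 1000, 2000 and 4000 bp, the last without an upper limit. The gained share of flavopiridol peaks ran 40.7%, 22.7%, 9.62%, 2.36% and 0.210% over the same widths. Lost peaks had a median width of 783 bp, gained peaks 602 bp and fragmented peaks 7828 bp. Fragmented peaks were mostly cut into 2 pieces (4844 peaks), with 882 in 3, 225 in 4 and 117 in 5 or more, and at most 14.

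Most of the H3K4me1 length missing after flavopiridol came from peaks that were still present. Of the untreated bases, 122.3 Mb (63.7%) lay in flavopiridol peaks and 69.8 Mb did not. Outer edges of kept peaks gave 39.0 Mb of these 69.8 Mb (55.8%), inner gaps of fragmented peaks 16.6 Mb (23.8%) and whole lost peaks 14.2 Mb (20.4%). The flavopiridol list had 21.4 Mb outside untreated peaks, of which 9.80 Mb were edges, 7.38 Mb whole gained peaks and 4.21 Mb inner gaps of the untreated list that were now covered.

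The bases that came and went differed in their untreated marks. Of the inner gaps closed after flavopiridol, 83.5% of bases lay in H3K4me3 peaks and 81.4% in H3K27ac peaks. Of the inner gaps opened after flavopiridol, 2.89% lay in H3K4me3, 16.0% in H3K27ac and 47.1% in H3K79me2. Of the bases of whole gained peaks 49.3% lay in H3K27me3, against 7.10% of the bases of whole lost peaks.

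Within fragmented peaks the retained pieces were where PU.1 and H3K27ac were. The retained pieces had 61.4% of their bases in H3K27ac, against 16.0% in the gaps between them, and 24.7% in PU.1 peaks, against 3.41%. A PU.1 peak was present in 69.7% of retained pieces and in 25.4% of gaps. Their median lengths were similar, at 1732 and 1759 bp, but the sets were not matched in length. The 13904 retained pieces held 38.2 Mb and the 7836 gaps 16.6 Mb, so retained pieces were longer on average. H3K79me2 did not separate them, with 46.0% of the bases of retained pieces and 47.1% of gap bases.

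The fates of peaks were then set out by the marks of untreated cells, in groups that do not overlap. Promoter-type peaks, those that met H3K4me3, were almost all kept: 592 of 21611 were lost (2.74%, 2.53 to 2.97), against the 20.9% of the whole list. Of enhancer-type peaks, with H3K27ac and no H3K4me3, 511 of 10680 were lost (4.78%, 4.396 to 5.21). Peaks of transcribed chromatin, with H3K79me2 or H3K36me3 and none of H3K4me3, H3K27ac and H3K27me3, had the highest lost share: 4727 of 9088 (52.0%, 51.0 to 53.0). Peaks with H3K27me3 alone lost 1482 of 6981 (21.2%, 20.3 to 22.2), and those with none of the 5 marks 6407 of 17160 (37.3%, 36.6 to 38.1). Peaks of transcribed chromatin were 13.9% of the untreated list and 34.4% of lost peaks.

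By length the transcribed group was again the lowest. The groups with H3K27ac and no H3K4me3 and with H3K27me3 alone, far apart by count, were about level. Flavopiridol peaks covered 31.5% of the untreated H3K4me1 bases of transcribed chromatin, against 72.1% with H3K4me3, 62.9% with H3K27ac and no H3K4me3, 63.0% with H3K27me3 alone and 47.7% with none of the marks. Among pairs, the median ratio of flavopiridol to untreated width was 0.583 in transcribed chromatin (4053 pairs) and 0.723 with H3K27ac and no H3K4me3 (8602). It was 0.863 with H3K4me3 (14104) and 0.951 with H3K27me3 alone (5180). Enhancer-type peaks were seldom lost but were narrower after flavopiridol in 87.3% of pairs, and 86.0% of the transcribed pairs were narrower.

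Gained peaks lay elsewhere. Of flavopiridol peaks with H3K27me3 alone, 4121 of 9602 were gained (42.9%, 41.9 to 43.9), against 14.2% of the whole list, and these were 43.4% of all gained peaks. The share was 22.2% (3631 of 16339) with none of the marks, 9.68% (633 of 6539) in transcribed chromatin and 4.99% (1083 of 21710) with H3K4me3. It was lowest in enhancer-type peaks, where 34 of 12826 were gained (0.265%, 0.190 to 0.370). Peaks with both H3K4me3 and H3K27me3 and no other mark, the signature of bivalent promoters, had a gained share of 33.2% (592 of 1784), and they alone among the patterns with at least 500 untreated peaks had a median width ratio over 1, at 1.08. Peaks with H3K79me2 and H3K36me3 and no other mark had the lowest, at 0.480.

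**Figure D2:**
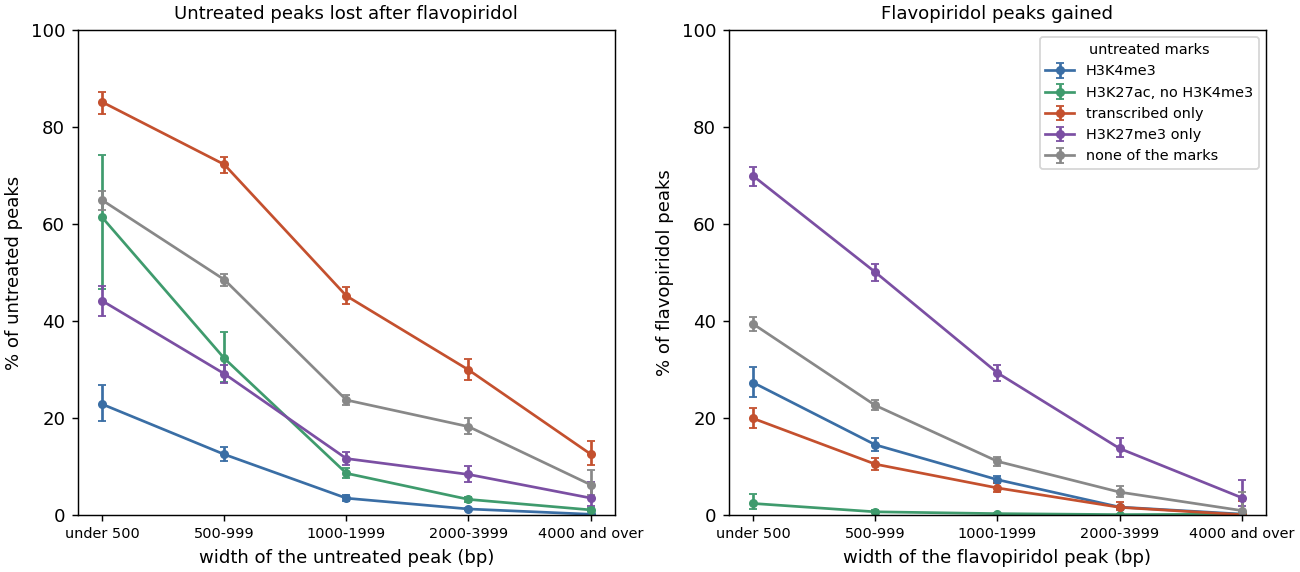
Left, share of untreated peaks lost after flavopiridol; right, share of flavopiridol peaks gained; both by peak width (bp) and by the untreated marks the peak met ("transcribed only" is H3K79me2 or H3K36me3 without H3K4me3, H3K27ac and H3K27me3). Bars are 95% Wilson intervals. The transcribed group is the highest on the left at every width, and the H3K27me3 group on the right.

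The transcribed group had the highest lost share and the H3K27me3 group the highest gained share within each of the 5 width classes. Among untreated peaks from 1000 bp to under 2000 bp, 45.2% of transcribed peaks were lost (1370 of 3033), against 3.41% with H3K4me3, 8.55% with H3K27ac and no H3K4me3, 11.6% with H3K27me3 alone and 23.7% with none of the marks. At 4000 bp and over the shares were 12.5% in transcribed chromatin and at most 6.19% in the other groups. Among flavopiridol peaks from 1000 bp to under 2000 bp, 29.3% with H3K27me3 alone were gained, against 0.225% to 11.02% in the other groups. At 4000 bp and over it was 3.52% (7 of 199), against at most 0.862%.

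Taken mark by mark without regard to the others, H3K79me2 and H3K36me3 gave other values. Of untreated peaks that met H3K79me2 14.3% were lost, against 22.8% of those that did not, and with H3K36me3 22.3% against 20.4%. Within each of the 5 width classes the peaks with the mark had the higher lost share. From 500 bp to under 1000 bp it was 62.6% with H3K79me2 and 42.5% without it, and 65.6% with H3K36me3 and 38.6% without it. The overall difference for H3K36me3, 1.94 percentage points, turned to −2.29 points with peaks of at least 1000 bp and to −0.556 points with peaks whose −log10 q was 5 or more.

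For H3K4me3 2.74% of untreated peaks with the mark and 29.9% without it were lost, for H3K27ac 2.97% and 35.7%, and for H3K27me3 13.9% and 22.4%. Gained flavopiridol peaks were 4.99% with H3K4me3 and 18.6% without it, 0.914% and 25.9% for H3K27ac, 1.10% and 17.9% for H3K79me2, 4.13% and 17.3% for H3K36me3, and 34.3% and 8.89% for H3K27me3. H3K27me3 was thus the sole mark of the 5 with a higher gained share in its presence. Its library is also the sole one of the 5 in the sample-list block of the flavopiridol libraries. The part of the block in this difference was not tested.

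PU.1 went with retention. Of untreated H3K4me1 peaks with a PU.1 peak 12.0% were lost (5136 of 42871), against 37.9% of those without (8592 of 22676). The share was 16.8% with 1 PU.1 peak, 3.22% with 2, 0.652% with 3 and 0.0805% with 4. It was 0 of 1475 peaks with 5 or more, whose Wilson interval reaches 0.260%. Peaks with more PU.1 were also wider, with a median of 1003 bp at none and 15546 bp at 5 or more. From 1000 bp to under 2000 bp the lost share was 27.8% with no PU.1, 13.8% with 1 and 10.5% with 2. Transcribed peaks of that width were lost in 33.2% of cases with PU.1 and 54.6% without it.

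Seen from PU.1, 59954 of the 69322 PU.1 peaks inside untreated H3K4me1 were still inside H3K4me1 after flavopiridol (86.5%, 86.2 to 86.7). By quartile of the deposited PU.1 fold enrichment the share was 81.2%, 81.9%, 86.0% and 93.4%, from weakest to strongest. It was 96.4% where PU.1 met H3K4me3, 96.6% with H3K27ac and no H3K4me3, 81.8% with H3K27me3 and neither of these, and 63.1% with H3K79me2 or H3K36me3 and neither of these. Of 30243 PU.1 peaks outside untreated H3K4me1, 5365 were inside it after flavopiridol (17.7%), and where they met H3K4me3 the share was 54.2% (2849 of 5260).

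At the centres of H3K4me3 peaks, where H3K4me1 is usually depleted, H3K4me1 was called more often after flavopiridol. The middle base of 17037 of 21676 untreated H3K4me3 peaks lay in an H3K4me1 peak after flavopiridol (78.6%, 78.0 to 79.1), against 14336 in untreated cells (66.1%, 65.5 to 66.8). In all, 3600 centres were covered after flavopiridol and not in untreated cells, and 899 the other way round. The rule for these positions used no H3K4me1 list.

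The difference was greatest where H3K4me3 met H3K27me3. There 2252 of 2577 centres were covered after flavopiridol (87.4%, 86.1 to 88.6), against 1191 in untreated cells (46.2%, 44.3 to 48.1). After flavopiridol and LPS for 4 h the share was 81.7%, against 47.0% after LPS for 4 h alone, and it was 41.1% after LPS for 1 h. Both libraries with the drug were thus above all 3 without it. The same split holds for the block of the sample list and for weaker enrichment, and the part of neither was tested. At H3K4me3 peaks with H3K79me2 and no H3K27me3 the share was 64.3% after flavopiridol and 50.6% in untreated cells. It was 55.6% after flavopiridol and LPS for 4 h, against 43.7% after LPS for 4 h alone. At those with H3K27ac and neither H3K79me2 nor H3K27me3 it was 92.7% after flavopiridol and 89.5% in untreated cells, and 86.8% after flavopiridol and LPS against 87.7% after LPS for 4 h, so that there the sets with and without the drug overlapped. Of H3K4me3 peaks of 2000 bp and over, 60.8% had their centre covered after flavopiridol and 38.3% in untreated cells. With and without the drug under LPS for 4 h these were 53.5% and 31.0%. Narrower peaks differed less, and hardly under LPS. Under 1000 bp the shares were 87.2% and 79.1%, and 80.7% and 80.4% under LPS. From 1000 bp to under 2000 bp they were 89.4% and 83.7%, and 81.1% and 80.8% under LPS. With none of H3K27ac, H3K79me2 and H3K27me3 they were 65.0% and 54.4%, but 55.3% and 58.9% under LPS.

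**Figure D3:**
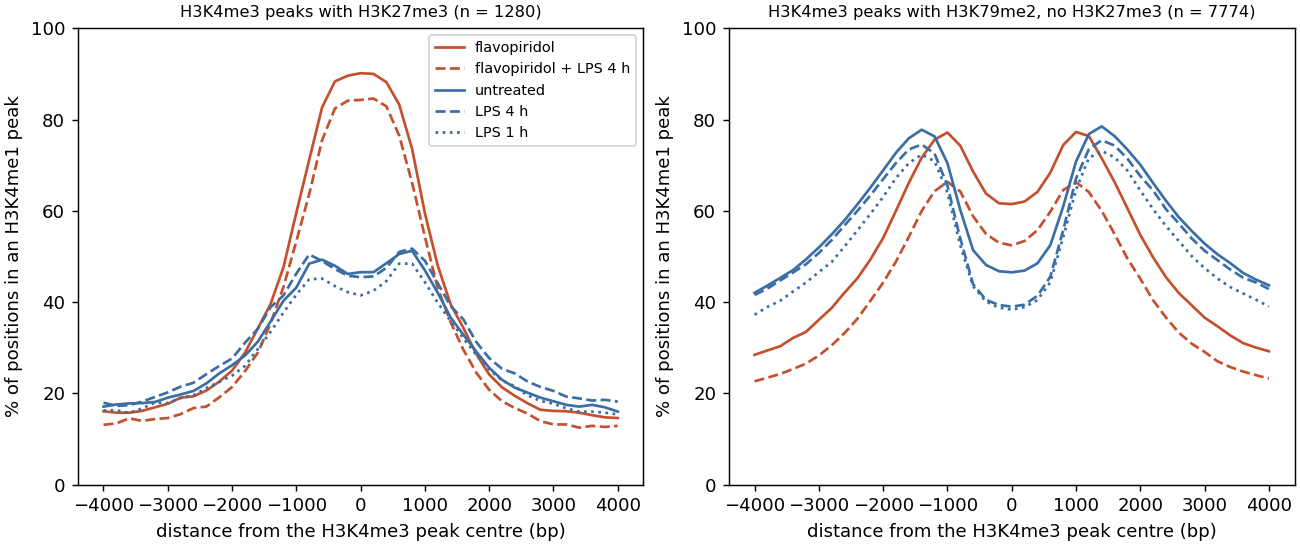
Share of positions inside an H3K4me1 peak by distance (bp) from the centre of untreated H3K4me3 peaks of at least 1000 bp, for 5 H3K4me1 lists; left, H3K4me3 peaks that met H3K27me3 (1280); right, those with H3K79me2 and no H3K27me3 (7774). The lists with flavopiridol lie above the others at the centre in both panels, and below them in the flanks on the right.

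At H3K4me3 peaks with H3K79me2 the profile of H3K4me1 was narrower after flavopiridol, as the plot by distance from the H3K4me3 centre shows. At the centre 61.5% of these peaks were covered after flavopiridol, against 46.5% in untreated cells. At 1000 bp towards higher coordinates it was 77.3%, against 70.8%, and at 1400 bp the order was turned, with 71.5% against 78.5%. At 3000 bp 36.6% of positions were covered after flavopiridol, against 52.8% in untreated cells. At H3K4me3 peaks with H3K27me3 the centre was covered in 90.2% of cases after flavopiridol, against 46.6% in untreated cells, while at 3000 bp the values were 16.2% and 18.3%.

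The promoter differences depend on the use of the whole lists, and a filter on the deposited q may not select strong peaks, since q hardly correlated between the lists. With peaks whose −log10 q was 5 or more, which leave 8594 flavopiridol and 35654 untreated peaks, the share of H3K4me3 centres covered was lower after flavopiridol by 31.7 percentage points overall and by 13.4 points with H3K27me3, in place of 12.5 and 41.2 points higher. With peaks of at least 1000 bp the differences were 8.90 and 32.0 points, and with the untreated joining limits 15.4 and 41.1 points.

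The deposited 27-state segmentation of untreated cells showed the same places base by base. The labels list this segmentation with the untreated H3K4me1 library and not with the flavopiridol one, so that untreated coverage is not independent of the states. States are described here by the untreated peaks over them. State 20, with H3K4me3 over 91.9% and H3K27me3 over 97.9% of its length, was covered by H3K4me1 to 86.7% after flavopiridol and 39.2% in untreated cells. State 10, with H3K27ac over 99.6% and H3K79me2 over 98.5% of its length beside H3K4me3, was covered to 62.8% and 29.4%. State 22 was covered to 65.7% after flavopiridol and 45.2% in untreated cells, and state 23 to 68.1% and 48.6%. H3K4me3 lies over 92.5% of state 22 and 99.6% of state 23. State 19, Polycomb chromatin with H3K27me3 alone over 286.4 Mb, was covered to 2.55% after flavopiridol and 1.48% in untreated cells, and it held 23.8% of all bases newly covered. State 27, with almost no mark over 1816 Mb, held 27.4% of them and was covered to 0.541% after flavopiridol and 0.526% in untreated cells. Of gained peaks 45.6% were assigned to state 27 and 35.0% to state 19. Of all flavopiridol peaks in state 27, 4334 of 8904 were gained (48.7%), and in state 19 3329 of 5858 (56.8%), against 14.2% of the whole list. State 27 also had a high lost share, 2496 of 6897 untreated peaks (36.2%), against 20.9% of the whole list. Its newly covered bases were 5.86 Mb and its lost bases 5.59 Mb.

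**Figure D4:**
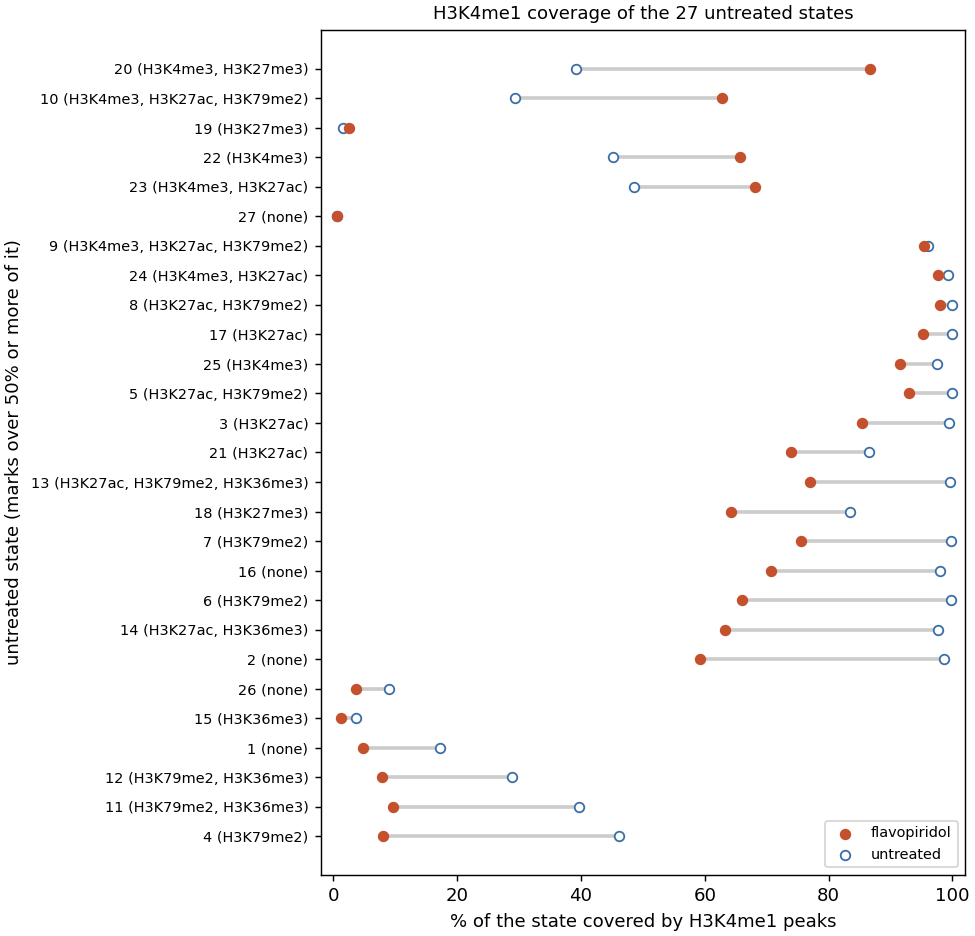
Percent of each untreated 27-state segment class covered by H3K4me1 peaks after flavopiridol (filled) and in untreated cells (open), ordered by the ratio of the 2 values, with the untreated marks that cover at least 50% of the state in brackets. States 20, 10, 22 and 23 with H3K4me3 and state 19 with H3K27me3 are at the top, with more coverage after flavopiridol, and states 4, 11 and 12 with H3K79me2 and no H3K27ac are at the bottom.

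The lowest ratios belonged to transcribed states without H3K27ac. State 4, with H3K79me2 over 99.8% of its length, was covered to 8.07% after flavopiridol and 46.2% in untreated cells, and 16.1% of its untreated H3K4me1 bases were kept. State 11 was covered to 9.58% and 39.7%, and state 12, with H3K36me3 over 99.9%, to 7.77% and 28.8%. State 1, with H3K36me2 over 99.9% of its length, was covered to 4.70% after flavopiridol and 17.1% in untreated cells. It has little of the transcription marks, with H3K79me2 over 6.30% and H3K36me3 over 13.5% of its length. It kept 22.0% of its untreated H3K4me1 bases, against 22.3% in state 12, so low retention was not confined to transcribed states. In the states with H3K27ac over at least 50% of their length, the share of untreated bases kept ran from 64.4% in state 14 to 98.1% in state 8. It was 97.9% in state 24 and 95.2% in state 17, but 85.8% in state 3 and 81.0% in state 21, each with H3K27ac over at least 93.8%. States with less H3K27ac were not all low, since state 20, with H3K27ac over 12.3% of its length, kept 94.9%. State 8 also has H3K79me2 over 99.6% of its length, and in state 13, with H3K36me3 as well and H3K27ac over 51.1%, 77.1% were kept.

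In the other H3K4me1 lists states 20, 10 and 4 stood apart in the same way, whereas states 19 and 27 did not. State 19 was covered to 2.21% after flavopiridol and LPS for 4 h, against 2.84% after LPS for 4 h alone and 1.65% after LPS for 1 h. State 27 was covered to 0.433%, 0.918% and 0.557% in the same order. State 20 was covered to 83.8% after flavopiridol and LPS for 4 h, against 39.8% after LPS for 4 h alone, and state 10 to 51.7% against 23.3%. State 4 was covered to 3.73% after flavopiridol and LPS for 4 h, against 42.5% after LPS for 4 h alone. After LPS for 1 h without the drug, state 20 was covered to 36.6%, state 10 to 21.2% and state 4 to 31.6%.

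Retention over all bases was lower further from H3K4me3 peaks, and differed least with distance under H3K27ac. Of untreated H3K4me1 bases inside H3K4me3 peaks 93.8% were kept after flavopiridol, 79.9% at 0 to 500 bp from one, 60.2% at 1000 to 2000 bp, 56.7% at 5000 to 10000 bp and 51.7% beyond 50000 bp. Under H3K27ac the share was 94.4% inside H3K4me3 peaks, 87.5% at 1000 to 2000 bp and 81.8% beyond 50000 bp. Under H3K79me2 or H3K36me3 without H3K27ac it was 94.1% inside H3K4me3 peaks, 46.3% at 1000 to 2000 bp and 28.8% beyond 50000 bp. With neither H3K27ac nor a transcription mark it was 89.4% inside H3K4me3 peaks and 47.3% at 1000 to 2000 bp. For these bases it was higher again at 5000 to 10000 bp, at 52.4%, and 46.6% beyond 50000 bp. Transcribed bases without H3K27ac were kept more often than these up to 1000 bp from H3K4me3 peaks (80.1% against 61.96% at 0 to 500 bp) and less often in each zone further out.

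Lost peaks were present in the libraries without the drug and mostly absent from the other library with it. That other library had the weakest H3K4me1 list, which covered 117.2 Mb, against 200.4 Mb after LPS for 4 h alone. It also shares its block of the sample list with the library after flavopiridol alone. The part of either in these absences was not tested. Of the 13728 lost peaks 14.2% met an H3K4me1 peak after flavopiridol and LPS for 4 h, whereas 78.8% met one after LPS for 4 h alone and 67.2% after LPS for 1 h. For kept untreated peaks these shares were 84.8%, 97.3% and 95.2%. In all, 6982 lost peaks (50.9%, 50.0 to 51.7) were present in both lists of LPS alone and absent with flavopiridol and LPS, and 143 (1.04%) had the reverse pattern. Of the lost peaks in transcribed chromatin 8.59% were present after flavopiridol and LPS for 4 h, against 76.5% after LPS for 4 h alone.

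Gained peaks were shared less. Of the 9504 gained peaks 48.5% were present after flavopiridol and LPS for 4 h, against 34.2% after LPS for 4 h and 19.8% after LPS for 1 h. The pattern of presence with flavopiridol and LPS and absence from both lists of LPS alone was found for 2477 of them (26.1%), the reverse for 529 (5.57%), and 3306 (34.8%) were in none of the 3 lists. Gained peaks that met H3K4me3 were present in 77.0% of cases after flavopiridol and LPS for 4 h, against 34.5% after LPS for 4 h alone. Those with H3K27me3 alone were present in 49.8% of cases after flavopiridol and LPS for 4 h, against 33.0% after LPS for 4 h alone.

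Other pairs of H3K4me1 lists give a scale, with peaks grouped by the same marks of untreated cells. For flavopiridol and LPS for 4 h against LPS for 4 h alone, 24807 peaks of the LPS list were lost (33.9%), 7068 were gained (11.4%) and the ratio of length was 0.585. For LPS for 1 h against untreated cells, with no drug and the same untreated library, 7006 untreated peaks were lost (10.7%), 4767 were gained (7.27%) and the ratio was 0.918. In the first of these pairs the lost shares were 66.8% in transcribed chromatin, 41.6% with H3K27me3 alone, 10.7% with H3K27ac and no H3K4me3 and 8.22% with H3K4me3. In the second they were 22.8%, 17.5%, 0.833% and 2.98% in the same groups, so that transcribed peaks had the highest lost share without the drug as well. The gained share with H3K27me3 alone was 35.4% with flavopiridol and LPS and 19.5% with LPS for 1 h. The next highest, with none of the marks, was 17.6% and 13.6%. The H3K27me3 group thus had the highest gained share without the drug as well.

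H3K36me2, mapped after flavopiridol alone as well, did not lose length in total, although many of its peaks changed. Its peaks covered 304.6 Mb after flavopiridol and 281.1 Mb in untreated cells, a ratio of 1.08. Of 50867 untreated H3K36me2 peaks, 9178 were lost (18.04%) and 6116 were fragmented (12.02%). Of 58006 H3K36me2 peaks after flavopiridol, 16637 were gained (28.7%). Of the untreated H3K36me2 bases 80.8% were kept. This list was also the weaker one, with 0.197% of its peaks at a −log10 q of 5 or more, against 9.02% in untreated cells. Lost H3K4me1 peaks met H3K36me2 in 48.2% of cases after flavopiridol and 51.5% in untreated cells, and kept untreated H3K4me1 peaks in 60.4% and 58.4%. Gained H3K4me1 peaks met it in 12.3% of cases after flavopiridol and 7.502% in untreated cells.

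Chromosome X stood apart in each of the 3 comparisons with the drug given here. On X 39.4% of untreated H3K4me1 peaks were lost, against 17.0% to 23.9% on the 19 autosomes, and 7.66% of flavopiridol peaks were gained, against 12.6% to 17.0%. The ratio of covered length was 0.496 on X and 0.708 to 0.811 on autosomes. It was 0.302 on X and 0.528 to 0.671 on autosomes for flavopiridol and LPS over LPS for 4 h, and for H3K36me2 after flavopiridol over untreated it was 0.731 on X and 0.984 to 1.257 on autosomes. Over untreated cells, LPS alone gave 0.966 on X and 0.905 to 0.930 on autosomes at 1 h, and 1.077 and 1.03 to 1.068 at 4 h. The cause was not tested. Without X 13065 peaks were lost, 9408 gained, 5947 fragmented and 20193 narrowed.

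The regions that follow were chosen by width or number of pieces, in mm9 coordinates, and their values are a description. The widest lost peak was chr1:97498341-97510587 (12247 bp). H3K79me2 and H3K36me3 each covered 100% of it, H3K27ac 21.6%, and it held 4 PU.1 peaks. H3K4me1 covered none of it after flavopiridol with or without LPS, 82.5% after LPS for 4 h and 52.3% after LPS for 1 h. The next were chr2:119729312-119740637 (11326 bp) and chr13:13695918-13706933 (11016 bp), both with H3K79me2 over 100%. The first peak was also the widest lost one with H3K27ac and with H3K36me3, and the peak on chromosome 2, with H3K27me3 over 54.5% of it, the widest with H3K27me3. The widest lost peak that met H3K4me3 was chr7:77964378-77971462 (7085 bp), of which H3K4me3 covered 5.62%, H3K27ac 32.6% and no transcription mark any base.

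**Figure D5:**
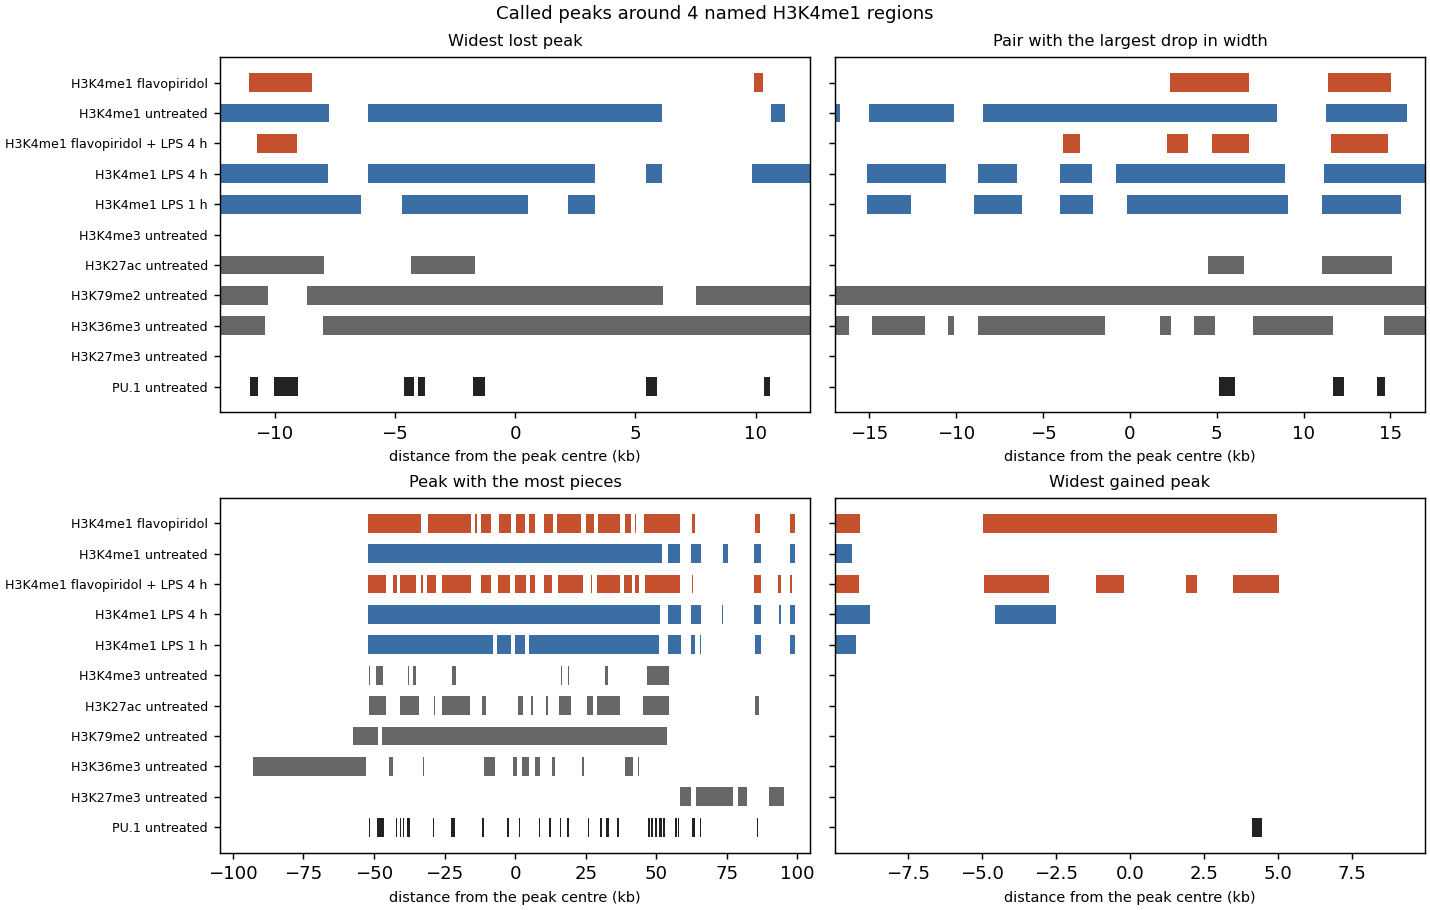
Called peaks around the widest lost peak, the pair with the largest drop in width, the peak with the most pieces and the widest gained peak, by distance (kb) from the centre of the named peak. Both H3K4me1 lists with flavopiridol lack the widest lost peak and cut the peak with the most pieces, which the untreated list calls as 1 peak of 104439 bp and the list of LPS for 1 h, without the drug, also cuts, into 4 pieces.

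The largest drop in width was at chr7:106178145-106195109, where the peak was 4506 bp wide after flavopiridol and 16965 bp in untreated cells. H3K79me2 covered 100% of the untreated peak and H3K27ac 12.4%, and the retained part held its 1 PU.1 peak. The next drops were at chr9:115191798-115204493, with 1016 bp after flavopiridol and 12696 bp in untreated cells, and at chr16:38100862-38114909, with 2545 and 14048 bp, again with H3K79me2 over 100%. The most pieces, 14, were cut from chr2:90314608-90419046 (104439 bp, 24 PU.1 peaks, H3K79me2 over 98.6%), of which 75.4% stayed covered after flavopiridol. Next were chr15:58805869-58911692 with 11 pieces and chr1:133348716-133421417 with 10, with H3K79me2 over 98.2% and 100% of them.

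The widest gained peak was chr16:6895926-6905866 (9941 bp), with none of the 5 marks and 1 PU.1 peak. H3K36me2 covered 85.2% of it after flavopiridol and none in untreated cells, and H3K4me1 covered 49.9% of it after flavopiridol and LPS for 4 h and 20.7% after LPS for 4 h alone. The next, chr13:31890059-31895885 (5827 bp) and chr13:51727575-51733238 (5664 bp), lay wholly in H3K27me3, with H3K4me3 over 16.4% and 8.95% of them. H3K4me1 covered 70.6% of the first and 36.5% of the second after flavopiridol and LPS for 4 h, against 43.0% and 89.6% after LPS for 4 h alone, so that these places also carried the mark without the drug.

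Equal numbers of the widest peaks left 14276 peaks lost and 8733 gained. Where at least 50% of a peak had to be covered, 25338 were lost and 12225 were narrowed. With a threshold of 5 on −log10 q, 31592 of 35654 untreated peaks were lost and 236 were fragmented.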

How the data were processed

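Peak intervals, not reads, were analysed. The submitters' processing notes name Bowtie 1.0.1, MACS2 and the mm9 build. Settings of the peak caller, its control library and read totals are not known here, and neither is depth. In the deposited broad-peak lists the score, the fold enrichment (a linear ratio over background), the −log10 p-value and the −log10 q-value of each peak are the authors'. PU.1 narrow peaks and 27 chromatin states in steps of 200 bp for untreated cells were also used as the authors deposited them. Other deposited segmentations were not used.

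Intervals on chromosomes 1 to 19 and X were taken to overlap when they shared 1 bp or more. PU.1 lines were reduced to 99565 distinct intervals. Lost, gained, fragmented, narrowed (at most 0.8 of the width) and widened (by 25% or more) peaks were counted against the other list, with the numbers of peaks tested beside them, and co-marks were assigned by overlap with untreated peak lists. Shares have 95% Wilson intervals. With 1 library per group there is no test. The named regions are the 3 widest lost, the 3 widest gained, the 3 with the most pieces, the 3 narrowed pairs with the largest drop in bp and the widest lost peak with each of H3K4me3, H3K27ac, H3K27me3 and H3K36me3. The classes, groups and region rules were chosen with earlier results of these data known, and the H3K4me3 centres and PU.1 counts were added on seeing the data. The interval functions were tested on simulated intervals by comparison with base-by-base counting. Python 3.11.15, numpy 2.4.6, pandas 2.3.3, scipy 1.17.1 and matplotlib 3.10.9 were used.

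Alternatives were a threshold of 5 on −log10 q, coverage of 50% of a peak, joining within 1 kb, equal numbers of the widest peaks, peaks of at least 1000 bp, all sequences, a narrowing limit of 0.5, co-marks at the peak centre and state segments of 400 bp or more. On seeing the data, omission of chromosome X, the untreated list's smallest gap and width for both lists, and joining across 2 kb were added.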

Additional observations from a re-analysis of the deposited data

Results flagged for a closer look

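In 3 cases the difference between peaks with and without a mark had opposite signs without LPS and under LPS for 4 h, in percentage points of the peaks of the list without the drug. The differences between the conditions were not tested. The share of narrowed peaks was lower with H3K4me3 than without it by −8.35 points for flavopiridol against untreated cells, and higher by 2.13 points for flavopiridol and LPS against LPS for 4 h alone. For H3K79me2 the narrowed share differed by −1.25 points without LPS and by 0.851 points with it. The lost share differed by H3K36me3 by 1.94 points without LPS and by −3.31 points with it.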

How the results depend on the processing

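No paired analysis was possible because each group has 1 library and no result comes from a test. Joining peaks within 1 kb changed no value, since no gap is that short, and all sequences, run for the counts and the length ratio, moved none of them by more than 1.5 times. The omission of chromosome X moved no count by more than 1.5 times and no difference beyond its 95% interval. The threshold on the deposited q, past which few flavopiridol peaks lie, moved the counts and the length ratio most. Since q hardly correlated between the lists (rho 0.0387 over pairs), it may not select strong peaks. It gave 31592 lost, 4352 gained, 236 fragmented and 2164 narrowed peaks and a length ratio of 0.128. Where 50% of a peak had to be covered, 25338 peaks were lost, 3996 fragmented and 12225 narrowed. With peaks of 1000 bp or more, 4521 were gained, 3672 fragmented and 12287 narrowed, and the length ratio was 0.712. A narrowing limit of 0.5 left 7946 narrowed peaks. The differences in lost share, with minus without a feature in percentage points, kept their sign except for H3K36me3. Values were −3.06 for H3K4me3, −3.42 for H3K27ac, −2.44 for H3K79me2, −0.556 for H3K36me3, −0.514 for H3K27me3 and −3.20 for PU.1 under the q threshold. These were −29.1 for H3K4me3, −30.0 for H3K27ac, −2.31 for H3K79me2, 6.66 for H3K36me3, −13.7 for H3K27me3 and −22.8 for PU.1 with 50% covered. They came to −28.0 for H3K4me3, −33.8 for H3K27ac, −9.05 for H3K79me2, 1.58 for H3K36me3, −8.31 for H3K27me3 and −26.5 for PU.1 with equal numbers of the widest peaks. They stood at −32.4 for H3K4me3, −39.7 for H3K27ac, −11.8 for H3K79me2, −2.29 for H3K36me3, −7.37 for H3K27me3 and −25.4 for PU.1 with peaks of 1000 bp or more. They amounted to −21.1 for H3K4me3, −25.3 for H3K27ac, −5.81 for H3K79me2, 13.3 for H3K36me3, −2.22 for H3K27me3 and −8.96 for PU.1 with the feature at the peak centre. They measured −29.1 for H3K4me3, −35.2 for H3K27ac, −9.74 for H3K79me2, 1.18 for H3K36me3, −8.55 for H3K27me3 and −27.0 for PU.1 with equal joining limits. The differences in gained share kept their sign for each feature under these settings. Under the q threshold the gained differences were −10.8 for H3K4me3, −20.5 for H3K27ac, −18.6 for H3K79me2, −15.3 for H3K36me3, 20.2 for H3K27me3 and −17.4 for PU.1. With 50% covered the gained differences were −11.4 for H3K4me3, −27.6 for H3K27ac, −18.5 for H3K79me2, −15.7 for H3K36me3, 32.3 for H3K27me3 and −26.5 for PU.1. With equal numbers the gained differences were −12.6 for H3K4me3, −23.8 for H3K27ac, −15.9 for H3K79me2, −12.5 for H3K36me3, 24.7 for H3K27me3 and −23.8 for PU.1. With peaks of 1000 bp or more the gained differences were −7.70 for H3K4me3, −24.6 for H3K27ac, −13.5 for H3K79me2, −10.8 for H3K36me3, 25.6 for H3K27me3 and −22.5 for PU.1. With the feature at the peak centre the gained differences were −9.27 for H3K4me3, −20.8 for H3K27ac, −15.7 for H3K79me2, −8.78 for H3K36me3, 36.0 for H3K27me3 and −14.0 for PU.1. With equal joining limits the gained differences were −12.0 for H3K4me3, −23.2 for H3K27ac, −15.3 for H3K79me2, −12.1 for H3K36me3, 23.5 for H3K27me3 and −24.1 for PU.1. The difference in H3K4me3 centres covered, flavopiridol minus untreated, was −31.7 points for all and −13.4 with H3K27me3 under the q threshold, the sole setting that turned its sign. It was 8.90 and 32.0 with peaks of 1000 bp or more, 15.4 and 41.1 with equal joining limits, and 10.4 and 38.7 when joined across 2 kb. Segments of at least 400 bp moved the share of bases kept by at most 2.81 points, in state 2. Causes of these moves were not tested. Depth is unknown and sets how many peaks are called, single libraries give no spread between cultures, and intervals cover counting error only.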
